A study of Homo sapiens with 9 samples.

Results

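Polyadenylated RNA of A549 cells was set against that of HEK293T cells, both copied with the same unanchored T12 primer, a run of 12 T. The comparison rests on 2 of the 9 samples of the series: A549 T12 replicate 2 and HEK293T T12 replicate 1. They were chosen because they are the T12 samples of each line for which gene counts were used. HEK293T is an embryonic kidney line labelled WT that was grown in high-glucose DMEM with fetal bovine serum. A549 is a lung epithelial line, also labelled WT, grown in F-12K with the same serum. Total RNA was taken with TRIzol and turned into libraries by CLT-seq, in which the first cDNA strand is primed with oligo(dT) and joined to a second adaptor through a splint. Cell line and medium differ together here and cannot be told apart. Each line had 1 library with gene counts, so no difference below has a replicate check and no p-value is given. The other 5 HEK293T libraries were made with T18, T30, T18V, T18VN and T18VNN primers (longer runs of T, or 18 T followed by anchor bases). They show how far values of 1 line move between libraries of different primers. Each primer had 1 library, so primer, library preparation and depth cannot be told apart in what is called primer spread below.

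A549 comes from a lung adenocarcinoma and is known for inactivating changes in KEAP1, STK11 and SMARCA4 and for a deletion that takes CDKN2A. HEK293T carries adenovirus E1A and E1B and the SV40 large T antigen, proteins that bind the retinoblastoma protein and p53. The labels describe both lines as wild type and name none of these changes. KEAP1 holds the transcription factor NRF2 at low levels by sending it to degradation, and NRF2 switches on genes of glutathione, thioredoxin and NADPH metabolism. The retinoblastoma protein holds back the E2F factors, which drive genes of DNA replication.

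The A549 library held 1502228 reads on genes and the HEK293T T12 library 3273811, and the other 5 HEK293T libraries held 2221181 to 5213546. Levels are given as CPM (reads of a gene scaled to a common total of reads on genes). A gene was compared where the library in which it was higher held at least 20 reads, equal to 13.3 CPM for A549 and 6.11 CPM for HEK293T T12. A gene of few reads that passes in this way through 1 library alone has to differ, so counts over a group describe these libraries only. Of 10188 genes compared, 3157 (31.0%) were at least 2-fold higher in A549 and 2974 (29.2%) at least 2-fold lower, on the scale of log2(CPM + 1), with a median log2 ratio of 0.02. Genes that passed 2-fold and also lay above all 6 HEK293T libraries numbered 2688 (26.4%), and 2256 (22.1%) lay below all 6. Counts over a group below are to be read against these shares of all genes. Between HEK293T T12 and the other primers, 29.1% to 40.1% of genes passed 2-fold, so a single gene inside the HEK293T range is not separated from the primer spread. Scaling all 7 libraries together by TMM moved the median of all genes to -0.17, and log2 ratios below are to be read against that possible shift. Folds are ratios of CPM with exact 95% counting intervals where these are given. Where 1 library held no read, the fold is a bound against a floor of 3 reads (0.916 CPM for HEK293T T12 and 2.00 CPM for A549). Putting such genes at their bounds moved no group median by more than 0.13 and turned none.

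By their sum, simple-epithelial markers matched the A549 label, with 3866 CPM in A549 and 15.3 to 30.9 CPM in the 6 HEK293T libraries. By number they did not set A549 apart: 5 of 9 held at least 3 reads there, with 2 at 0, and 3 to 5 did in HEK293T. Alveolar type 2 markers did not match the label, since 9 of 10 were without a read in A549 and ABCA3 alone was detected, at 16 reads. Kidney markers summed to 47.3 CPM in A549 and to 37.0 to 61.0 CPM in HEK293T, so they did not set the HEK293T label apart. Neuron markers summed to 264 CPM in A549 and to 1001 to 1937 CPM in HEK293T. Most of the HEK293T sum was NEFM, at 904 to 1809 CPM there and 0 in A549. TUBB3, of the same list, was higher in A549, so the sum does not describe every member. Endothelial and muscle markers were at 0 in A549, and 2 of 6 hepatocyte markers were detected there (FGB with 383 reads and SERPINA1 with 4). Low sums above the HEK293T range were found for leukocyte and erythroid markers (53.9 against 0 to 6.75 CPM, 7 of 9 at 0), fibroblast markers (47.3 against 9.47 to 31.6 CPM, 5 of 8 at 0) and airway markers (26.0 against 3.60 to 11.7 CPM, 3 of 6 at 0) in A549, and their part in the results was not tested. The plot of group medians below gives the order of the gene groups that follow.

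**Figure D1:**
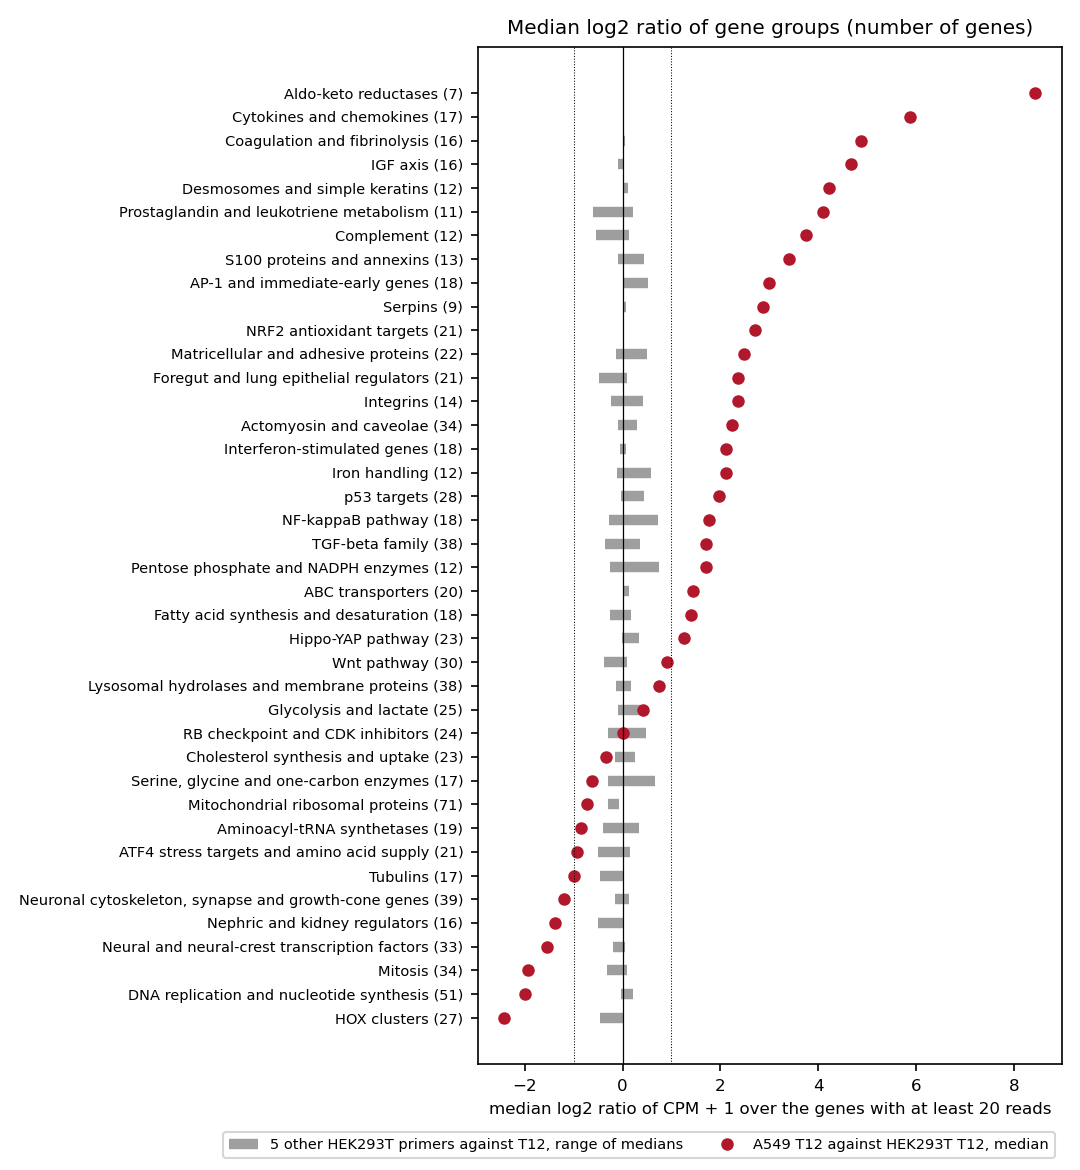
Median log2 ratio of A549 T12 to HEK293T T12 (red points, on CPM + 1) for 40 gene groups, with the number of genes compared in brackets. Grey bars span the medians of the 5 other HEK293T primers against T12, and dotted lines mark 2-fold. Aldo-keto reductases stood highest at 8.43 and the HOX clusters lowest at -2.41.

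Of 24 listed NRF2 targets 21 were compared, and 17 were at least 2-fold higher, all 17 also above every HEK293T library, with none lower. The median log2 ratio was 2.70, against 0.00 for each of the 5 other primers. That 0.00 does not show a group unmoved by the primer, since 4 of the 21 had no read in HEK293T T12. Between the other primers and T12, 2 to 6 targets were at least 2-fold higher and 3 to 6 lower. FTL, the ferritin light chain, stood at 18901 CPM, against 4208 CPM in HEK293T T12 (lowest 802, median 2404 and highest 5841 CPM over the 6 HEK293T libraries), a 4.49-fold difference. FTH1, the ferritin heavy chain, was 10.3-fold higher, at 917 against 89.2 CPM. NQO1, the quinone reductase at chr16:69743304-69760533 of hg19, had 1313 reads, against none in HEK293T T12, which is at least 954-fold higher. The other HEK293T libraries held 0.192 to 8.51 CPM of NQO1, so the bound is specific to the T12 library and the A549 level was 103-fold above the highest HEK293T value. EPHX1, the microsomal epoxide hydrolase, was 4.83-fold higher.

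Both subunits of the enzyme that starts glutathione synthesis were higher, GCLC at 68.6 against 3.36 CPM (20.4-fold, interval 10.9 to 42.2) and GCLM at 65.9 against 7.03 CPM (9.38-fold). GSR, which recycles oxidised glutathione, was 22.6-fold higher, and TXNRD1, which recycles thioredoxin, was 17.8-fold higher. GPX2, a glutathione peroxidase of epithelia, had 614 reads, against none in any of the 6 HEK293T libraries, at least 446-fold higher. HMOX1, which breaks down haem, was 3.68-fold higher at 89.9 CPM, and SRXN1, which restores oxidised peroxiredoxins, was 2.09-fold higher. SLC7A11, the cystine carrier, was 5.40-fold above HEK293T T12 but only 1.14-fold above the highest HEK293T library. PRDX1, a peroxiredoxin, did not pass 2-fold, at 115 against 70.9 CPM. In the separate list of glutathione transferases and peroxidases 5 of 15 were higher and 6 lower (median 0.57), and GPX1 and GPX4 were within 2-fold.

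The regulators themselves gave thinner counts. NFE2L2, which encodes NRF2, had 33 reads against 2 in HEK293T T12, a ratio of 36.0 with a counting interval of 9.20 to 309. The HEK293T libraries ran from 0.611 to 19.2 CPM for NFE2L2, so the A549 level of 22.0 CPM was only 1.15-fold above the highest. KEAP1 had 11 reads against 106, 4.42-fold lower, and its 7.32 CPM lay below the HEK293T range of 9.40 to 32.4 CPM. MAFG, a small MAF partner of NRF2, was 4.12-fold higher at 610 CPM, and MAFK was 19.6-fold higher at 71.9 CPM. Of the 7 regulators compared, 4 were higher and 2 lower (median 1.28), and the median turned to -0.34 over the 4 that overlap no other gene.

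The antioxidant response element, the core bound by NRF2, was searched as TGACNNNGC on both strands of RefSeq promoter windows of 300 bases (250 before the start site and 50 after, GRCh38.p14). It was found in 6 of the 16 NRF2-target promoters in hand (37.5%), in 4 of 12 whose genes were at least 2-fold higher (33.3%), and in 2180 of 15222 protein-coding promoters (14.3%). Of the 7952 promoters of genes compared here 1199 held it (15.1%), as did 9 of 46 promoters of the DNA replication list (19.6%). The 60 bases around it are shown for those 4 genes because they are the higher targets that hold the core. They are written 5′ to 3′ on the strand of the gene, with the core in capitals, as its reverse complement where it lies on the other strand. GCLM is from chr1:93909431-93909490 (minus strand), GPX2 from chr14:64942834-64942893 (minus strand), TXNRD1 from chr12:104215654-104215713 (plus strand) and ME1 from chr6:83431155-83431214 (minus strand). A match describes the letters and is neither a shown binding site nor a cause.
GCLM: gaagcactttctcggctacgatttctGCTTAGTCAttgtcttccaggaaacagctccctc
GPX2: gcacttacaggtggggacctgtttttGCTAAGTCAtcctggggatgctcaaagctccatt
TXNRD1: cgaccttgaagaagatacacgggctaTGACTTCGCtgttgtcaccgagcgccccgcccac
ME1: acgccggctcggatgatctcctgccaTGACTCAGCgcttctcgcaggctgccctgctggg

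Aldo-keto reductases, which reduce aldehydes and ketones with NADPH, had the highest median of all groups in the plot: 7 of 12 were compared, 6 were higher and 1 lower (median 8.43). AKR1B1, aldose reductase, stood at 7954 CPM against 479 CPM (362 to 626 CPM over HEK293T), 16.6-fold higher. AKR1C1, AKR1C2 and AKR1C3, steroid and prostaglandin reductases, had 824, 1836 and 518 reads and none in HEK293T T12. These 3 are near-identical in sequence, so the split between them is uncertain. AKR7A2 was the member that was lower, at 16.0 against 43.4 CPM and below all 6 HEK293T libraries.

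NADPH supply followed in part. Among 12 enzymes of the pentose phosphate pathway and NADPH supply, 8 were higher and 2 lower (median 1.70). PGD, a dehydrogenase of the pathway, was 7.79-fold higher at 1404 against 180 CPM. TKT, transketolase, stood at 1500 CPM against 264 CPM, yet 1 HEK293T library reached 1063 CPM. IDH1, the cytosolic isocitrate dehydrogenase, was 10.7-fold higher, ME1, the cytosolic malic enzyme, 4.33-fold, and H6PD, the dehydrogenase of the endoplasmic reticulum, 5.00-fold. The mitochondrial IDH2 was at 147 against 270 CPM and TALDO1 at 168 against 261 CPM, both within 2-fold. RPIA, which interconverts the pentose phosphates, was lower, with 6 reads against 73 (5.58-fold, interval 2.45 to 15.7).

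Other enzymes of aldehyde and drug metabolism were divided. Of 15 aldehyde dehydrogenases 7 were higher and 4 lower (median 0.06). ALDH3B1 and ALDH2, the mitochondrial enzyme of ethanol metabolism, were at 310 and 369 CPM against 2.44 and 38.2 CPM, whereas ALDH1A2, which makes retinoic acid in embryos, had 0 reads against 208, and ALDH1B1 was 3.87-fold lower. CYP1B1, a cytochrome P450 of the aryl hydrocarbon response, was 87.8-fold higher, and CYP24A1, which inactivates vitamin D, had 218 reads against 0 in all 6 HEK293T libraries. All 9 UGT1A genes compared share their last exons and carried the same 51 reads against 0, so they count as 1 signal. MGST1, a microsomal glutathione transferase, had 424 reads against 6 (interval of the ratio 70.2 to 422), and GSTM3, a cytosolic one, was 13.2-fold lower.

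Of 46 ABC transporters 20 were compared, 13 were higher and 4 lower (median 1.44). ABCC3 and ABCC2, exporters of conjugated compounds, had 326 and 52 reads in A549 and none in any HEK293T library, while ABCC1 was 5.85-fold higher. Among 12 iron-handling genes 8 were higher and 1 lower (median 2.11). SLC40A1, the iron exporter ferroportin, was at 21.3 against 2.75 CPM, and CP, ceruloplasmin, was at 46.6 CPM against 0.611 to 9.45 CPM in HEK293T. TFRC, the transferrin receptor, was within 2-fold (30.0 against 23.2 CPM). NCOA4, the receptor that takes ferritin to the lysosome, was 2.14-fold lower.

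**Figure D2:**
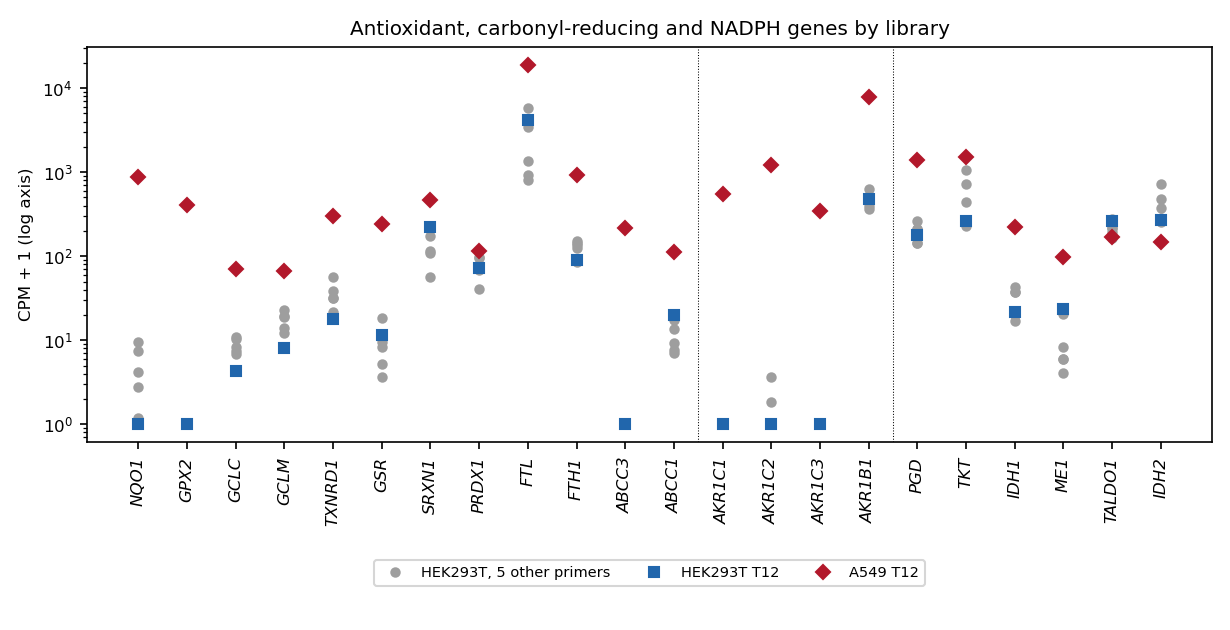
CPM + 1 on a log axis of 22 antioxidant and export genes, aldo-keto reductases and NADPH enzymes in A549 T12 (red diamonds), HEK293T T12 (blue squares) and the 5 other HEK293T libraries (grey points), 1 library a point. A549 lay above every HEK293T library for 20 of the 22 genes, and TALDO1 and IDH2 were the exceptions.

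A549 RNA held transcripts of many secreted plasma proteins. Of 29 complement genes 12 were compared, and 10 were higher and 1 lower (median 3.75). C1S and C1R, the proteases of the first complement component, stood at 658 and 347 CPM in A549 and reached 5.56 and 3.33 CPM at most in HEK293T. C1S had no read in HEK293T T12 (at least 718-fold higher), and C1R had 3 (378-fold, interval 129 to 1841). C3, the central component, had 131 reads in A549 and none in any HEK293T library. Membrane inhibitors differed less, CD59 at 240 against 58.3 CPM and CD46 at 40.6 against 10.7 CPM, while CD55 was within 2-fold. SERPING1, the inhibitor of C1R and C1S, was the one that was lower, with 0 reads against 31 (at least 4.74-fold lower).

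Coagulation and fibrinolysis genes were higher in 15 of the 16 compared, of 32 listed, and lower in 1 (median 4.87). The 3 fibrinogen chains FGA, FGB and FGG, normally products of hepatocytes, had 608, 383 and 38 reads in A549 and none in any HEK293T library. PLAU, urokinase, was 45.0-fold higher at 536 against 11.9 CPM, and its receptor PLAUR was 11.8-fold higher. TFPI, the inhibitor of the tissue factor pathway, was 19.7-fold higher, and TFPI2 had 162 reads against 0 in HEK293T T12. PLAT, the tissue-type plasminogen activator, ran the other way at 18.6 against 47.7 CPM, below the HEK293T range of 28.4 to 81.2 CPM. Among 9 serpins 6 were higher and 2 lower (median 2.87), among them SERPINB1, an inhibitor of neutrophil proteases, 25.3-fold higher at 734 CPM.

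Cytokine and chemokine genes were higher in 16 of 17 compared, of 43 listed (median 5.86), and none was lower. CXCL3, a neutrophil chemokine, stood at 2459 CPM in A549 and at 0 to 5.68 CPM in HEK293T, with 3694 reads against 2 in T12 (interval of the ratio 1113 to 33250). CXCL1 was at 457 against 2.14 CPM, and CXCL8 had 222 reads in A549 and none in the 6 HEK293T libraries. CCL2, which draws monocytes, had 362 reads against 0 in HEK293T T12. IL11 and LIF, ligands that signal through gp130, were at 109 and 43.3 CPM in A549 and at most at 0.554 and 1.53 CPM in HEK293T. MIF, a constitutive cytokine, was the exception, at 172 against 250 CPM and inside the HEK293T range of 85.5 to 370 CPM.

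Of 16 genes of the insulin-like growth factor axis compared 11 were higher and 2 lower (median 4.66). IGFBP4, which holds IGF away from its receptor, was at 3373 CPM against 3.60 to 16.7 CPM in HEK293T, 283-fold above T12. PAPPA, the protease that cuts IGFBP4, had 4043 reads against none in HEK293T T12. The binding proteins IGFBP2 and IGFBP5 were within 2-fold, at 395 against 407 CPM and 30.0 against 50.4 CPM. IGF1R, the receptor, was 7.38-fold higher at 704 CPM, and the adaptor IRS2 was 51.9-fold higher at 460 CPM. IGF2 was within 2-fold at 47.3 against 74.2 CPM, and INSR, the insulin receptor, was 2.37-fold lower but inside the HEK293T range. STC1 and STC2, which inhibit PAPPA, went opposite ways. STC1 was at 75.2 CPM against 0 to 5.56 CPM in HEK293T, and STC2 was 7.55-fold lower at 51.3 CPM against 243 to 443 CPM.

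Of 22 matricellular and adhesive proteins compared 16 were higher and 1 lower (median 2.48). FN1, fibronectin, was at 360 against 15.6 CPM, 23.1-fold higher, and AGRN, agrin, had 145 reads against 2 (ratio 158, HEK293T range 0.611 to 6.75 CPM). NID1, a linker of basement membranes, was the lower one, below every HEK293T library. Among 18 collagen chains 11 were higher and 4 lower (median 1.66, which turned to -0.18 over the 10 chains that overlap no other gene). COL5A1 was 9.97-fold and COL4A2 6.64-fold higher, while COL6A1 was 6.12-fold lower at 53.3 CPM against 326 to 523 CPM. COL2A1, the cartilage collagen, had 0 reads against 36. Of 7 laminins 4 were higher and 2 lower (median 2.23). LAMA5, the main alpha chain of epithelial basement membranes, was 28.0-fold higher at 949 CPM, and LAMA1, the embryonic alpha chain, had no read in A549 and 10.2 to 18.8 CPM in HEK293T.

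Genes that turn matrix over went both ways, 6 of 12 higher and 4 lower (median 1.11). MMP7, matrilysin of epithelia, had 355 reads in A549 and none in any HEK293T library. TIMP3, an inhibitor that binds the matrix, had 2 reads against 457 (HEK293T range 63.9 to 140 CPM), and the protease ADAMTS1 had 0 against 260. TIMP1 was 2.40-fold higher.

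Of 14 genes carrying the integrin prefix 8 were higher and 3 lower (median 2.35). They include ITGB1BP1 and ITGB3BP, which are not integrins and were within 2-fold. ITGB1, the shared beta subunit, was at 775 CPM against 32.4 to 52.4 CPM, 23.3-fold above T12, and ITGB5 was 9.29-fold higher. ITGA3, a laminin receptor subunit, had 526 reads against 2 (ratio 573, interval 158 to 4745), and ITGA2, a collagen receptor subunit, was 11.3-fold higher. ITGA8, a subunit of developing kidney, had 0 reads against 36 in HEK293T T12, but this was not below every HEK293T library. Of the 3 lower genes only ITGAE lay below all of them.

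Of 12 desmosomal and keratin genes 10 were higher and 2 lower (median 4.22). KRT18 and KRT8, partners in simple epithelia, were at 1293 and 1024 CPM, against 14.1 and 3.67 CPM in HEK293T T12. KRT81, a hair keratin, had 967 reads against 0. JUP, plakoglobin, was at 137 against 7.64 CPM, DSP, desmoplakin, was 2.42-fold higher, and CDH1, E-cadherin, 48.5-fold at 163 against 3.36 CPM. The desmocollins DSC2 and DSC3 ran the other way, with 0 reads in A549 against 128 and 56. Of 13 S100 proteins and annexins 11 were higher and none lower (median 3.39). ANXA2 was 10.6-fold higher at 1946 CPM, its partner S100A10 4.65-fold at 375 CPM, and S100A4 had 961 reads against 2 (ratio 1047). CLDN2, a pore-forming claudin, had 491 reads in A549 and none in any HEK293T library.

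Growth factor receptors were divided. EGFR was 6.20-fold higher at 339 CPM against 8.04 to 54.7 CPM. Of 18 other receptor tyrosine kinases 9 were higher and 8 lower (median 0.37). MET, the receptor of hepatocyte growth factor, was 6.39-fold higher at 115 CPM, EPHB2, an ephrin receptor, 3.36-fold at 357 CPM, and NTRK3, a neurotrophin receptor, had 532 reads against 0 in HEK293T T12. FGFR1 was 2.24-fold lower at 58.6 CPM, below the HEK293T range of 85.2 to 131 CPM, PTK7, a Wnt co-receptor, 12.5-fold lower, and FLT4, a receptor of lymphatic endothelium, had 0 reads against 129. Among 20 tetraspanins 9 were higher and 4 lower (median 0.63), with CD9 at 177 against 6.72 CPM and TSPAN14 at 322 against 16.5 CPM.

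Of 34 actomyosin and caveola genes 22 were higher, 21 of them above all HEK293T libraries, and 1 was lower (median 2.24). ACTN4, an actin crosslinker, stood at 8158 CPM against 959 to 1337 CPM, 6.10-fold above T12. ACTG1, cytoplasmic gamma actin, was 5.80-fold higher at 7643 CPM, but the highest HEK293T library reached 5950 CPM. TPM4, a tropomyosin, was 4.69-fold higher, TPM1 15.0-fold, FLNA, filamin A, 13.3-fold, and LMNA, the lamin A gene, 6.82-fold. CAV1, the coat protein of caveolae, was at 361 against 7.64 CPM (HEK293T range 7.12 to 21.7 CPM), and CAVIN1 was 14.8-fold higher. MYH10, nonmuscle myosin IIB, was within 2-fold at 124 against 215 CPM, whereas MYH9, nonmuscle myosin IIA, was 2.86-fold higher.

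Of 17 tubulin and gamma-tubulin-complex genes 8 were lower, all 8 below the HEK293T range, and 3 were higher (median -0.99). TUBA1B, the most counted alpha tubulin, fell from 10608 CPM in HEK293T T12 (8869 to 18163 CPM over the 6) to 715 CPM in A549, 14.8-fold lower. TUBB, a beta tubulin, was 21.1-fold lower at 282 against 5948 CPM, TUBB4B 8.02-fold and TUBB2B 10.5-fold. TUBG1, the gamma tubulin that seeds microtubules, was 7.09-fold lower at 78.5 CPM. TUBB3, known from neurons, was higher, at 129 against 33.9 CPM. Tubulin genes, actin genes, FTH1 and GAPDH have near-identical copies or processed pseudogenes, and how reads with several matches were assigned is not given in the sources used here.

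**Figure D3:**
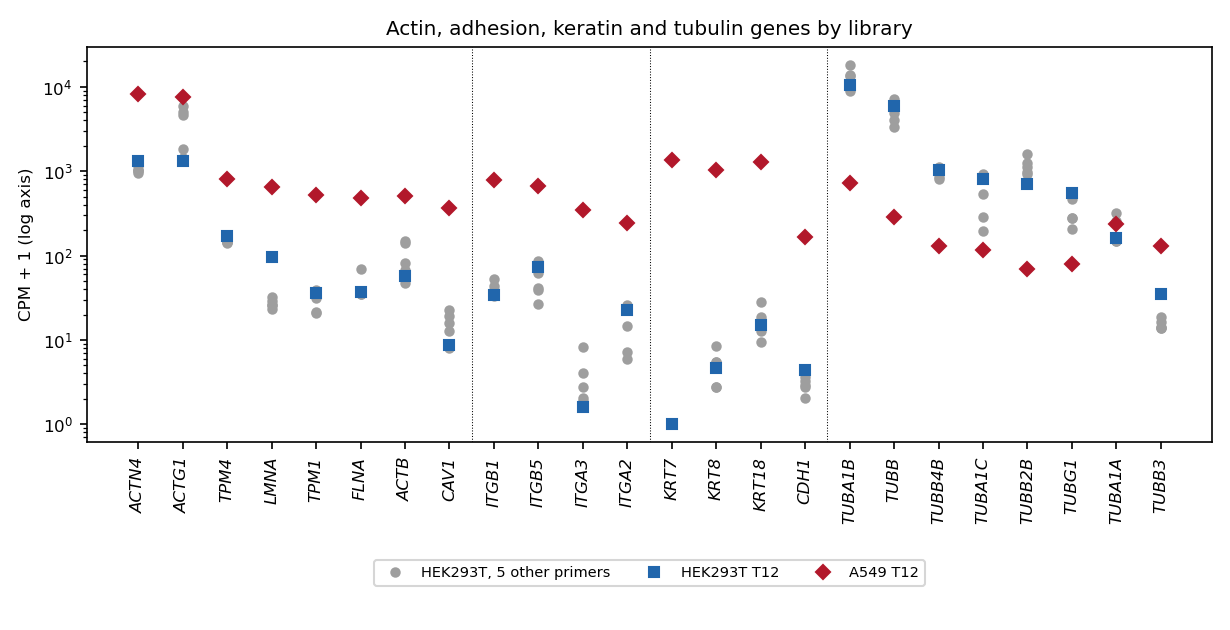
CPM + 1 on a log axis of 24 actin-associated, integrin, keratin and tubulin genes in A549 T12 (red diamonds), HEK293T T12 (blue squares) and the 5 other HEK293T libraries (grey points). The 16 genes from ACTN4 to CDH1 lay above every HEK293T library in A549, and 6 of the 8 tubulins, TUBA1B to TUBG1, lay below every one.

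Of 38 genes of the TGF-beta family of growth factors and its signal carriers compared, 21 were higher and 8 lower (median 1.71). Among ligands TGFB2 was at 1381 CPM against 4.97 to 19.5 CPM, 70.7-fold above T12, and BMP2 and BMP4 were 16.7-fold and 12.3-fold higher. BMP7, a kidney morphogen, had 0 reads in A549 against 231, at least 35.3-fold lower, and INHBA, an activin subunit, had 0 against 68. Of 9 receptors compared 3 were higher, 1 lower and 5 within 2-fold. TGFBR2 had 141 reads against 2 (ratio 154), BMPR2 and ACVR2A were 4.96-fold and 7.47-fold higher, ACVR2B was 2.41-fold lower, and TGFBR1 was among those within 2-fold. SMAD3, a signal carrier of TGF-beta, was 38.9-fold higher at 297 against 7.64 CPM. Their target ID1, an inhibitor of differentiation factors, was 43.4-fold higher at 1484 CPM, and ID3 9.83-fold, while ID4 was lower with 6 reads against 35.

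In the Hippo pathway, whose kinases hold back YAP1 and WWTR1, 14 of 23 genes were higher and 4 lower (median 1.26). YAP1, WWTR1 and their DNA-binding partner TEAD1 were at 91.2, 68.6 and 117 CPM against 8.86, 5.80 and 8.55 CPM, 10.3-fold, 11.8-fold and 13.7-fold higher. Another partner, TEAD4, had 1 read against 64 (29.4-fold lower). NF2, an upstream inhibitor, was 3.60-fold lower at 25.3 CPM against 91.0 to 153 CPM, and the scaffold AMOTL1 was 4.99-fold lower. Other upstream members were higher: the kinase LATS2 2.15-fold, the adaptor SAV1 3.27-fold and the scaffold WWC1 2.82-fold, each above every HEK293T library, and MOB1A 16.3-fold but inside the HEK293T range. AXL and NT5E, commonly used YAP targets, had 109 and 51 reads against 0 in HEK293T T12, whereas ANKRD1 and ARHGEF17 were within 2-fold.

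Of 30 Wnt pathway genes 14 were higher and 4 lower (median 0.90). LGR6, a receptor of R-spondins, had 143 reads against 2, RSPO3, an R-spondin, had 33 against 0 in all 6 HEK293T libraries, and WNT7B had 86 against 0. TCF7, a DNA-binding partner of beta-catenin, was 7.67-fold lower at 26.6 CPM against 116 to 416 CPM. In the Notch pathway 7 of 17 genes were higher and 5 lower (41.2% and 29.4%, against 31.0% and 29.2% over all genes, median 0.50). The ligand JAG1 was at 38.6 against 0.916 CPM and the target HES1 was 4.08-fold higher, whereas the target HEY1 was 41.6-fold lower, at 3.33 CPM against 110 to 210 CPM. DLL3, an inhibitory ligand, was 4.53-fold lower.

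Immediate-early genes, which answer growth factor signalling within minutes, were higher in 15 of 18 compared and lower in 1 (median 2.99). JUNB was 16.5-fold higher at 470 CPM, FOSL2 7.53-fold at 253 CPM, and EGR1 at 124 CPM stood against 0.355 to 6.30 CPM in HEK293T. Feedback inhibitors of the ERK pathway were also higher, DUSP4 8.90-fold at 228 CPM, while SPRY4 had 74 reads against 0 and SPRED1 54 against 3. JUN was 2.40-fold above HEK293T T12 at 883 CPM but inside the HEK293T range of 368 to 2080 CPM. ATF3 was lower, with 3 reads against 45 (6.88-fold).

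The NF-kappaB list gave 12 higher and 1 lower of 18 (median 1.76). NFKBIA, the inhibitor that NF-kappaB itself induces, was at 403 against 35.7 CPM, 11.3-fold higher. TNFAIP2 was at 1102 against 2.14 CPM, BIRC3, an inhibitor of cell death, 38.1-fold higher at 501 CPM, and NFKBIZ 68.8-fold at 147 CPM. The inhibitor NFKBIE was 2.40-fold lower but inside the HEK293T range, and NFKBIB was within 2-fold. The subunits RELA and NFKB2 were within 2-fold, at 33.9 against 24.4 CPM and 21.3 against 40.9 CPM. The subunits NFKB1 and REL passed 2-fold above T12, at 73.9 and 142 CPM, but lay inside the HEK293T ranges of 23.5 to 103 CPM and 56.8 to 262 CPM. Of 18 interferon-stimulated genes compared, from 43 listed, 12 were higher and 2 lower (median 2.12). IFITM2, an antiviral membrane protein, was 22.7-fold higher at 4361 CPM, OAS1 and GBP1 had 30 and 26 reads against 0 in all 6 HEK293T libraries, and USP18, a feedback inhibitor, was 2.75-fold lower.

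Prostaglandin genes were higher in 8 of 11 and lower in 1 (median 4.09). PTGS2, the inducible cyclooxygenase, had 177 reads against none in HEK293T T12, and PTGES, which makes prostaglandin E2 from its product, was 22.0-fold higher at 397 CPM. HPGD and PTGR1, which break prostaglandins down, were higher as well, with 204 reads against 0 and 527 against 5 (230-fold).

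Targets of p53, a factor that halts the cycle after DNA damage, were higher in 18 of 28 and lower in 3 (median 1.98). CDKN1A, which blocks cyclin-dependent kinases, was 5.53-fold higher at 615 CPM against 12.4 to 111 CPM in HEK293T. TNFRSF10B, a death receptor, was 7.62-fold higher, DDB2 and XPC, which recognise DNA damage, 4.90-fold and 19.6-fold, and BAX, which opens mitochondria, 3.86-fold. BBC3 was 8.21-fold above T12 but inside the HEK293T range of 18.3 to 282 CPM. MDM2, which degrades p53, did not pass 2-fold, at a ratio of 1.41. SESN2, also an ATF4 target, was at 122 CPM, below every HEK293T library, and HEK293T T12 held the highest of the 6 values at 1466 CPM (lowest 284).

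Of 53 listed genes of DNA replication 51 were compared, and 35 were at least 2-fold lower, 34 of them below every HEK293T library, with 14 within 2-fold and 2 higher (median log2 ratio -1.99, against 22.1% of all genes below every library). MCM2, a subunit of the replicative helicase, was at 68.6 CPM against 3303 CPM in HEK293T T12, a 48.2-fold difference, with a lowest HEK293T value of 449 CPM. MCM3 was 28.1-fold lower at 20.6 against 580 CPM (469 to 583 CPM over HEK293T), MCM7 was at 31.3 against 188 CPM and MCM4 was 4.03-fold lower. CDC45 and GINS2, which complete the helicase, had 0 reads in A549 against 271 and 138, at least 41.5-fold and 21.1-fold lower. The licensing factors CDC6 and CDT1 were 9.28-fold and 3.35-fold lower, and their inhibitor GMNN 4.63-fold.

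FEN1, which trims Okazaki fragments, was 16.7-fold lower at 53.3 against 887 CPM, and RPA2, part of the single-strand binding complex, 14.1-fold at 39.9 against 562 CPM. RRM2, the regulated subunit of ribonucleotide reductase, was 22.8-fold lower at 7.32 against 167 CPM, while RRM1, the other subunit, was within 2-fold, as were TYMS and TK1. The 2 higher genes, PCNA (50 reads against 21) and RFC1 (39 against 14), had their lowest HEK293T value in T12 and lay inside the HEK293T ranges of 6.41 to 46.8 CPM and 4.28 to 82.3 CPM.

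The E2F site was searched in its forms TTTGGCGC and TTTCCCGC on both strands of the same promoter windows, and these letters read GCGCCAAA and GCGGGAAA on the other strand. Either form was found in 17 of 46 replication promoters (37.0%), in 11 of the 30 whose genes were at least 2-fold lower (36.7%), in 470 of 15222 protein-coding promoters (3.09%) and in 309 of the 7952 promoters of genes compared here (3.89%). Windows of 60 bases that hold the site are shown for 6 of them, chosen to cover helicase subunits, a licensing factor, a clamp loader and a polymerase, with the site in capitals. The windows of CDT1, RFC3 and POLE cross the start site, and the site of POLE lies after it. MCM3 is from chr6:52284883-52284942 (minus strand), MCM6 from chr2:135876562-135876621 (minus strand), MCM7 from chr7:100101551-100101610 (minus strand), CDT1 from chr16:88803728-88803787 (plus strand), RFC3 from chr13:33818068-33818127 (plus strand) and POLE from chr12:132687343-132687402 (minus strand), all of GRCh38.p14. MCM6, RFC3 and POLE were 6.54-fold, 4.97-fold and 10.6-fold lower, and the values of the other 3 stand above. As above, a match is a description of letters.
MCM3: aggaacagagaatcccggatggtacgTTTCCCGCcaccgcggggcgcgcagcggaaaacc
MCM6: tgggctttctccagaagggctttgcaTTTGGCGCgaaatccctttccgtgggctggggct
MCM7: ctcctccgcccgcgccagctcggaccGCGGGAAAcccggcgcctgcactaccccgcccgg
CDT1: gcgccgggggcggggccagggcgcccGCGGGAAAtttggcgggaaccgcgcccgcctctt
RFC3: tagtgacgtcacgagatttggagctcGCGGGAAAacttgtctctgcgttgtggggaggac
POLE: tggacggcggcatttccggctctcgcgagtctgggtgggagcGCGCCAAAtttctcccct

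Mitotic genes were lower in 23 of 34, with 21 below every HEK293T library, and higher in 3 (median -1.92). AURKB, the kinase of the chromosomal passenger complex, was 15.9-fold lower at 143 against 2273 CPM, and its partners BIRC5 and INCENP were 18.5-fold and 7.36-fold lower. AURKA was 11.8-fold lower at 63.2 against 747 CPM, PLK1 6.15-fold at 113 against 696 CPM, and UBE2C, which marks cyclins for degradation, 8.83-fold. The phosphatases that switch on cyclin-dependent kinases split: CDC25A and CDC25C had 6 reads against 765 and 3 against 618, whereas CDC25B was 5.21-fold higher at 73.2 against 14.1 CPM. SPC25, a kinetochore subunit, was 4.07-fold higher. MKI67, the proliferation marker, was 3.84-fold lower at 43.9 CPM against 118 to 297 CPM in HEK293T. Growth rate and cycle phase of the cultures are not in the labels, and their part in these values was not tested.

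**Figure D4:**
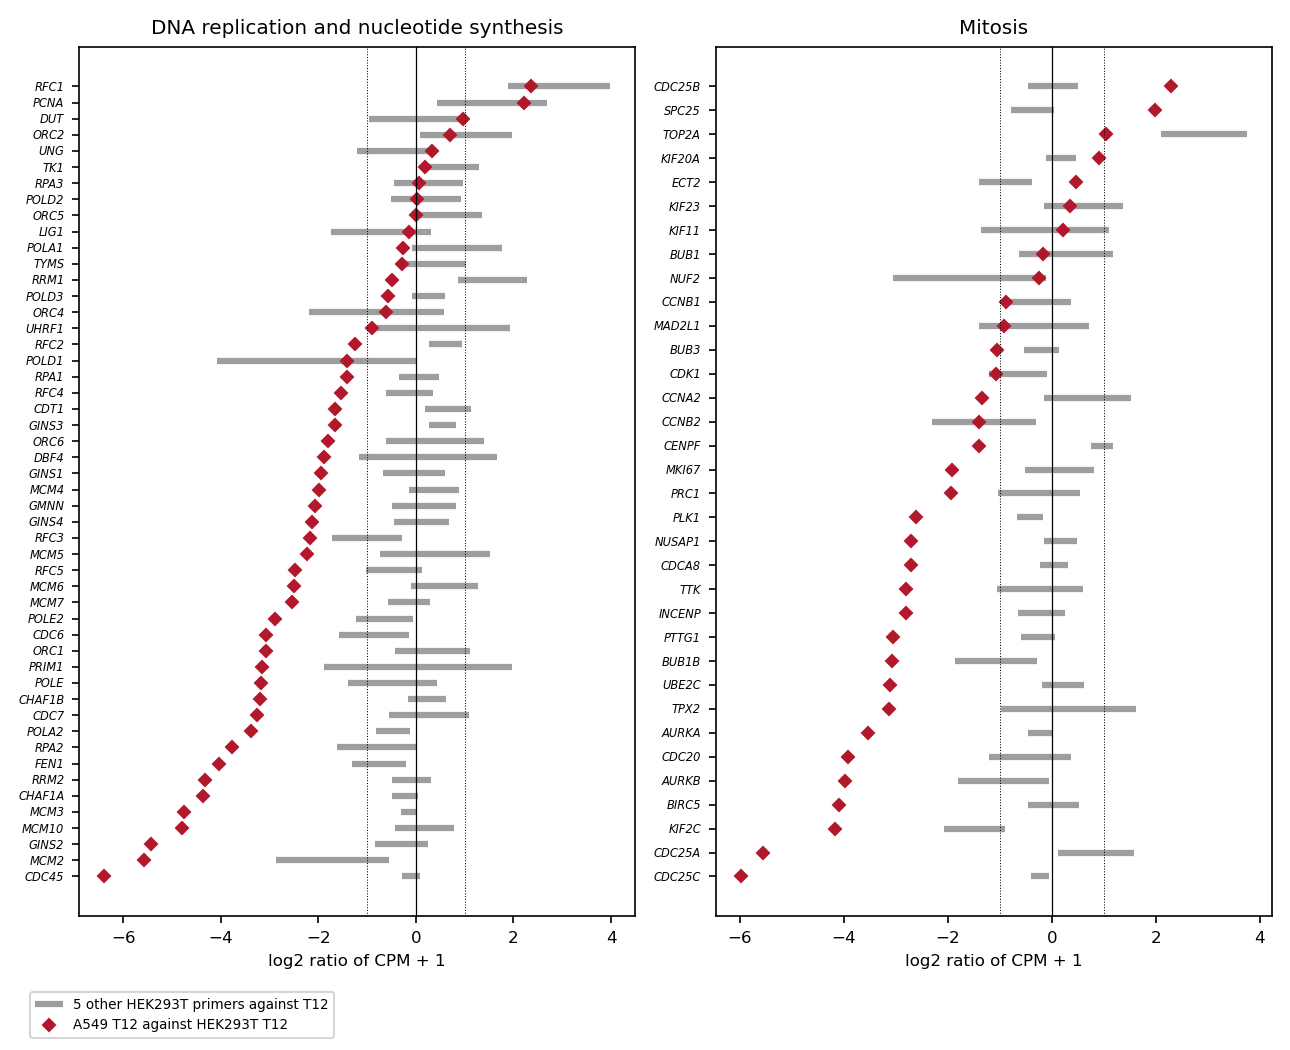
Log2 ratio of CPM + 1 for A549 T12 against HEK293T T12 (red diamonds) for 50 of the 51 replication genes and all 34 mitotic genes compared, sorted by value. Grey bars span the same ratio for the 5 other HEK293T primers, and dotted lines mark 2-fold. RFC1 and PCNA, the 2 replication genes higher in A549, fell within their grey bars, and CDC45 and CDC25C stood lowest.

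Control of the G1 phase was mixed, with 4 of 24 genes higher and 9 lower (median 0.02). CDKN2A, which encodes an inhibitor of CDK4 and a stabiliser of p53, had 0 reads against 1386 in HEK293T T12 (351 to 679 CPM over the 6 libraries), at least 212-fold lower. Its neighbour MTAP had 19 reads against 173, 4.18-fold lower. CDK4 was 3.25-fold lower at 2549 against 8293 CPM, CDK2 4.24-fold, and E2F1 3.13-fold but inside the HEK293T range of 28.0 to 155 CPM. CCND2, cyclin D2, had 0 reads against 89. RB1 itself was 3.69-fold higher on few reads, 22 against 13, at 14.6 CPM against 2.70 to 9.58 CPM in HEK293T. Among 19 SWI/SNF chromatin remodelling subunits 4 were lower and 1 higher (median -0.40). The share lower, 21.1%, was below the 29.2% over all genes, and the share higher, 5.26%, was below 31.0%. The other primers against HEK293T T12 gave 0 to 4 lower. SMARCA4, one of the alternative ATPases, had 3 reads against 318 (48.6-fold lower, interval 16.5 to 237), SMARCB1 was 11.4-fold lower, and SMARCC1, a core scaffold, 5.11-fold at 355 against 1816 CPM.

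HOX genes, whose order along a chromosome mirrors the body axis, were lower in 18 of the 27 compared and higher in 5 (median -2.41). The HOXD cluster summed to 42.6 CPM in A549 against 372 to 732 CPM in HEK293T, and all 4 of its genes compared were lower, HOXD11 31.5-fold at 11.3 against 356 CPM. HOXC summed to 109 CPM against 270 to 377 CPM, with 6 of 8 lower. HOXA summed to 95.9 CPM against 160 to 262 CPM, with 4 of 7 lower, and HOXA9 had 0 reads against 117. HOXB gave both directions and its sum of 485 CPM lay inside the HEK293T range of 317 to 805 CPM. HOXB9 was 46.6-fold lower at 11.3 CPM against 65.3 to 527 CPM, whereas HOXB8 at 317 CPM, HOXB5 at 66.6 CPM and HOXB3 at 31.3 CPM lay above every HEK293T library. These genes lie close together and some overlap, so their reads may be shared.

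**Figure D5:**
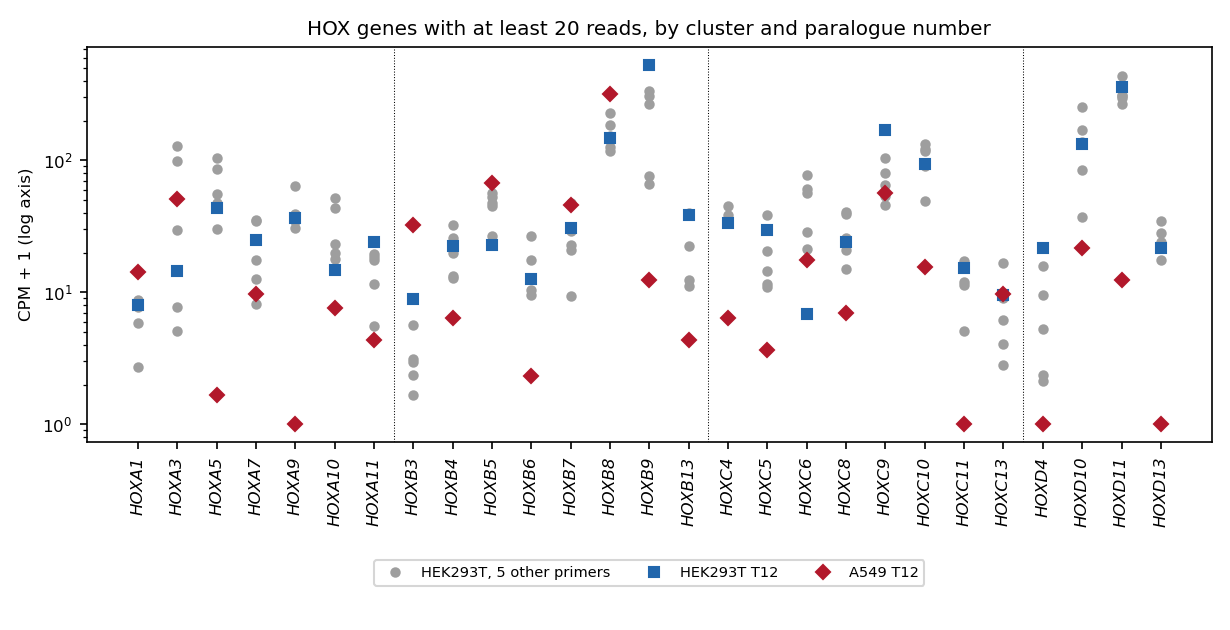
CPM + 1 on a log axis of the 27 HOX genes compared, ordered by cluster (A to D, split by dotted lines) and paralogue number, in A549 T12 (red diamonds), HEK293T T12 (blue squares) and the 5 other HEK293T libraries (grey points). A549 lay below all 6 HEK293T libraries for 16 genes at 2-fold or more, and HOXB3, HOXB5 and HOXB8 were the 3 that passed 2-fold above all 6.

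Regulators of foregut and lung epithelium were higher in 12 of 21 and lower in 6 (median 2.35). ELF3, an epithelial ETS factor, and FOXA2, a founder of the foregut, had 816 and 648 reads against none in HEK293T T12, and their highest HEK293T values were 0.277 and 8.51 CPM. CEBPD had 431 reads against 0, CEBPB was 8.50-fold higher, KLF5 23.2-fold, SOX9 6.07-fold and FOXA1 8.72-fold. The lung regulator NKX2-1 had 0 reads against 20. CEBPA was 7.63-fold lower at 5.33 CPM, and GATA4 4.30-fold at 16.0 CPM. CDX2, a hindgut factor, had 0 reads in A549 and 229 to 417 CPM in HEK293T, at least 186-fold lower.

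Nephric regulators were lower in 9 of 16 and higher in 3 (median -1.37). SIX2, CITED1 and EYA1, which mark nephron progenitors, had 0 reads in A549 against 524, 331 and 213 in HEK293T T12, and each was detected in all 6 HEK293T libraries, from 40.1, 65.2 and 17.7 CPM upward. OSR2 and PAX2 were 3.13-fold and 3.29-fold lower. EYA4 was 4.85-fold above T12 but inside the HEK293T range of 17.7 to 326 CPM.

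Of 33 neural and neural-crest transcription factors 18 were lower and 8 higher (median -1.55). HAND1, ISL1, DLX2 and INSM1 had 0 reads in A549 against 204, 56, 79 and 46. PBX3 was 6.44-fold lower at 26.0 against 167 CPM. PAX6 was 6.09-fold below T12 but inside the HEK293T range of 11.1 to 99.5 CPM. SOX4 was 2.42-fold higher at 1716 CPM. Neuronal products were split, with 15 of 39 higher and 20 lower, all 20 below every HEK293T library (median -1.19). NEFL, the light neurofilament, and GAP43, a growth-cone protein, had 0 reads against 336 and 325, and BEX4 had 1 against 622 (interval of the ratio 51.0 to 11291). UCHL1, a neuronal ubiquitin hydrolase, was 3.86-fold higher at 534 CPM, CNTN1, an axonal adhesion protein, had 223 reads against 0, and SNAP25, a synaptic fusion protein, 59 against 0.

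Carbon metabolism differed in parts. Among 25 glycolytic genes 12 were higher and 4 lower (median 0.41). The glucose carriers SLC2A1 and SLC2A3 were 6.14-fold and 17.1-fold higher, PKM 3.58-fold at 2532 CPM, GAPDH 3.32-fold at 1953 CPM and LDHA 2.85-fold. SLC16A3, which exports lactate, had 245 reads against 0 in all 6 HEK293T libraries, whereas SLC16A1, another lactate carrier, was 2.53-fold lower. HK2, an inducible hexokinase, had 3 reads against 105 (16.1-fold lower). In fatty acid synthesis 11 of 18 were higher and 1 lower (median 1.40). With overlapping genes counted as 1 locus, 10 of 17 loci were higher and 1 lower (median 1.26). The desaturases FADS2 and FADS1 were 6.27-fold and 2.91-fold higher, the latter at 1170 against 402 CPM, and ELOVL5, an elongase, 6.32-fold. Cholesterol synthesis did not follow, with 4 of 23 higher and 7 lower (median -0.33). The share lower, 30.4%, was near the 29.2% over all genes, and the share higher, 17.4%, was below 31.0%. MVK, mevalonate kinase, was 3.90-fold lower and EBP, a sterol isomerase, 8.59-fold lower.

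Of 17 one-carbon genes 8 were lower and 3 higher (median -0.63). ATIC, which closes the purine ring, was 4.62-fold lower at 594 against 2744 CPM, PHGDH, which starts serine synthesis, 6.77-fold at 49.3 against 334 CPM, SHMT2 4.27-fold and CBS, which makes cystathionine, 19.4-fold at 10.7 CPM against 165 to 421 CPM. Of 21 ATF4 targets and amino acid supply genes 9 were lower and 4 higher (median -0.92), with ATF4 itself 3.11-fold lower at 41.9 CPM, below the HEK293T range of 54.5 to 130 CPM. DDIT3 had 2 reads against 105, and ASNS, asparagine synthetase, was 4.29-fold below T12, yet inside the HEK293T range of 23.8 to 157 CPM. HEK293T T12 held the highest of the 6 HEK293T values of ATF4, DDIT3, CHAC1, ASNS, SESN2 and GPT2. Cytosolic aminoacyl-tRNA synthetases were lower in 8 of 19 and higher in 1 (median -0.84), YARS1 4.19-fold at 155 against 650 CPM and MARS1 2.54-fold. QARS1 was the higher one, at 35.3 against 14.4 CPM.

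Protein breakdown and folding genes were unequal. Of 38 lysosomal genes 16 were higher and 3 lower (median 0.75). The cathepsins CTSB, CTSD and CTSL were 15.6-fold, 10.1-fold and 9.50-fold higher, at 553, 321 and 267 CPM, and CTSS had 68 reads against 0 in all 6 HEK293T libraries. GLA, alpha-galactosidase, was 6.98-fold lower. Among 21 cytosolic heat shock genes 3 were higher and 7 lower (14.3% and 33.3%, against 31.0% and 29.2% over all genes, median -0.06). HSP90AB1, the constitutive HSP90, was 3.37-fold lower at 2247 against 7567 CPM, and HSPB1, a small heat shock protein, 9.31-fold higher at 608 CPM. HSPA1A (876 reads against 6) and HSPA1B (69 against 2867) are near-identical copies, and their opposite ratios are uncertain for that reason. Mitochondrial ribosomal proteins were lower in 31 of 71 and higher in 4 (median -0.73), while over the other primers the median of that group ran from -0.30 to -0.07.

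Cytosolic ribosomal protein genes, whose products are needed in equal numbers, gave unequal ratios: 12 of 83 were higher and 22 lower (median -0.19, inside the range of -0.35 to 0.15 over the other primers). These shares, 14.5% and 26.5%, were below the 31.0% and 29.2% over all genes. The other primers against HEK293T T12 gave 0 to 12 higher and 0 to 16 lower. RPL38 was 17.4-fold higher at 6637 against 382 CPM, RPL39 4.37-fold at 3410 CPM and RPS21 5.81-fold at 3076 CPM, each above every HEK293T library. RPL7A was 5.42-fold lower at 1520 against 8231 CPM, RPS12 8.26-fold and RPS28 11.6-fold, each below every HEK293T library. Many processed pseudogenes of these genes exist, and the part of read assignment in the ratios was not tested. Nuclear genes of the respiratory chain were higher in 15 of 74 and lower in 26 (median -0.53, against -0.27 to 0.20 over the other primers). The shares were 20.3% higher and 35.1% lower, against 31.0% and 29.2% over all genes. Over the other primers 3 to 17 were higher and 4 to 14 lower. UQCR10 and NDUFB8, subunits of complexes III and I, were 11.3-fold and 10.1-fold lower at 80.5 and 97.9 CPM, and COX6B1 of complex IV was 4.40-fold higher at 506 CPM.

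Over all genes compared, in the groups or not, the 10 most in favour of A549 that overlap no other gene included CPLX2, a regulator of synaptic vesicle fusion, with 1592 reads in A549 and none in the 6 HEK293T libraries (at least 1156-fold higher), and THSD7A, a membrane protein of podocytes, with 990 reads against 0 in HEK293T T12. ALDH3A1, an aldehyde dehydrogenase, had 2096 reads against 1, and KRT7 had 2052 against 0. The 10 genes most in favour of HEK293T included GAL, the neuropeptide galanin, with 860 reads against 0 (at least 132-fold lower), SMIM10, with 951 against 0, ZCCHC12 with 471, RGS16, a brake on G-protein signalling, with 470, and TRO, trophinin, with 451. Each of these lower genes was detected in all 6 HEK293T libraries, the lowest value being 36.3 CPM for RGS16. TRIM26, with 398 reads against 0, lies on several alternative chromosome 6 sequence names in the tables, so its 0 is uncertain.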

How the data were processed

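Polyadenylated RNA was measured by CLT-seq in 9 samples, 7 of which had gene counts and 2 of which form the comparison. Per the submitters' processing notes, the tools included FastQC 0.11.8, cutadapt 2.10, Trimmomatic 0.39, HISAT2 2.2.1 and SAMtools, and the genome was hg19. The authors deposited read counts per RefSeq transcript in tables with the header layout of RSeQC FPKM_count, per the file headers, and these counts were used. The handling of strand and of reads with several matches is not given in the sources used here. Groups were taken from the sample titles.

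Accessions without their version gave a gene symbol for 60809 of 61177 transcript rows (99.4%). The row with most reads stood for each of 26883 genes, and CPM was computed on gene reads. A gene was compared where at least 1 of the 2 libraries held 20 reads or more (10188 genes), on log2(CPM + 1) at 2-fold, a scale that understates changes of low genes. With 1 library a line there was no test. Folds carry exact binomial 95% intervals that, like the floor of 3 reads, cover counting error only, since reads had no molecular identifiers. Counting of calls was tested on simulated data. Python 3.11.15 with pandas 2.3.3, numpy 2.4.6 and scipy 1.17.1 was used, and edgeR 4.0.16 and DESeq2 1.42.0 in R 4.3.3 gave scaling factors only. Promoter sequence is RefSeq's, of GRCh38.p14. Gene positions are those of the deposited tables.

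The members and the 72 gene lists were chosen with earlier results of these data known. Within a list the genes named are those at least 2-fold different and outside the HEK293T range with most reads in the higher library, up to 4 in each direction, then members needed to describe roles. Over all genes, members of lists included, they also come from the 10 most above and the 10 most below HEK293T T12 that held 50 reads or more in the library with the higher CPM, lay outside the HEK293T range and overlapped no other gene. Some near-identical copies and overlapping genes are given as uncertain where they are named. The 96 named genes that overlap another gene are uncertain as a set and are not all marked singly. Close relatives within gene families are not all marked either. Some members of the lists are counted but not reported here by name.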

Additional observations from a re-analysis of the deposited data

How the results depend on the processing

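No paired analysis was possible because each cell line has 1 library with gene counts, and for the same reason no replicate block or leave-one-out fit was run. The comparison was repeated under 16 alternatives, 1 of them (TMM over 7 libraries) added after seeing the data. Requiring 1 read in either library gave 5192 higher and 3746 lower genes (58.1% of those called higher), and requiring 50 in either gave 1972 and 2269 (46.5%), with 1743 above all HEK293T libraries. At 4-fold, 1834 were higher and 1524 lower, and outside the HEK293T range 1722 and 1320. Without genes that overlap another gene, 2099 were higher and 1967 lower, and outside the range 1790 and 1497. That alternative also turned the medians of the collagens (-0.18, over 10 genes) and of the NRF2 regulators (-0.34, over 4 genes). The reason for these turns was not tested. Other alternatives (scaling by TMM or DESeq2, pseudocounts of 0.5 and 5, summed transcripts, equal depth, each other HEK293T primer as reference) kept all 4 counts within 1.5 times and turned no list median called at 2-fold. Of the 359 genes named, 15 changed sign with another HEK293T library as reference, each where A549 lay inside the HEK293T range. Of the 334 named genes past 2-fold, 23 to 33 lay within 2-fold against each other HEK293T library. Of 1152 list medians over all alternatives, 543 moved by more than 1 SD of the HEK293T libraries. Log2 ratios against T18 were 0.60 for ABCA3, -0.88 for EYA4 and REL, -0.47 for NFKB1 and -1.34 for RFC1. Against T30, EYA4 gave -1.91, NFKBIE 2.81 and REL -0.52. Against T18V the values were 0.60 for ASNS, -0.26 for BBC3, 0.01 for CHAC1, 0.30 for E2F1, -0.84 for EYA4, 0.40 for INSR, -0.63 for JUN, 2.37 for NFKBIE, -0.37 for REL and -1.27 for RFC1. Against T18VN they were 3.54 for ABCA3, -0.38 for BBC3, -0.92 for EYA4, 0.18 for INSR, -0.64 for JUN, -0.04 for MOB1A, 1.58 for NFKBIE, 0.37 for PAX6, -0.05 for PCNA and -1.45 for RFC1. Against T18VNN they were 0.56 for ABCA3, -0.90 for BBC3, -1.24 for JUN, -0.48 for PCNA and -1.63 for RFC1. Of the named genes 96 overlap another gene, PCNA, EGFR, KRT8, TXNRD1, DDIT3, CLDN2 and TIMP3 among them, and are uncertain, since use of strand in the counting is not given in the sources used here. Depth limits genes near 20 reads, most in A549.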

Other observations

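Fetal and germline genes went both ways. Of 12 oncofetal genes 2 were higher and 4 lower (median -0.62), and of 12 cancer-testis and MAGE genes 5 were higher and 5 lower (median -0.11), against 31.0% higher and 29.2% lower over all genes. LIN28B, an RNA-binding protein of early development, had 0 reads in A549 and 33.0 to 77.0 CPM in the HEK293T libraries. IGF2BP1, a fetal RNA-binding protein, was 2.66-fold lower at 105 against 280 CPM, whereas its relative IGF2BP3 was 6.38-fold higher at 81.9 against 12.8 CPM. GPC3, a fetal glypican, had 0 reads against 44. MAGED1 was 4.62-fold lower at 378 CPM (HEK293T range 1313 to 2278 CPM), and PRAME, a cancer-testis antigen, was 5.88-fold higher at 370 CPM. Among 14 imprinted genes 9 were higher and 2 lower (median 2.52). PEG10 had 170 reads in A549 and MEG3 32, with none in any HEK293T library, and GRB10 was 3.45-fold lower at 73.9 against 255 CPM. SNRPN and SNURF share a transcript and the same 410 reads against 3, so they count as 1 signal. With overlapping genes counted as 1 locus, 8 of 13 imprinted loci were higher and 2 lower (median 1.84).

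Markers of cell state did not fall on 1 side. SPINT2, an epithelial protease inhibitor, was 81.9-fold higher at 575 against 7.03 CPM, and the mesenchymal markers VIM and CDH2 were higher as well, at 259 against 41.5 CPM and 171 against 72.4 CPM. Of the repressors of E-cadherin, SNAI1 and ZEB1 were higher, at 55.3 against 5.80 CPM and 32.6 against 6.41 CPM, whereas ZEB2 was 4.51-fold lower and SNAI2 had 2 reads against 37. Of 48 cadherin and protocadherin genes compared 43 were higher, but most are clustered protocadherins that share exons. Over 13 separate loci 8 were higher and 3 lower, and with TMM factors over 7 libraries 21 of the 48 genes were higher.

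Chromosomes differed in their median. On chromosome 22, 141 of 265 genes were lower and 42 higher (median -1.14, against -0.23 to 0.00 over the other primers), and on chromosome 21, 51 of 99 were lower and 17 higher (median -1.07). Chromosome 8 gave 154 of 347 higher and 67 lower (median 0.73). Chromosome 5 gave 204 of 500 higher and 108 lower (median 0.51, against -0.06 to 0.12 over the other primers). Genes that share exons were each counted here. The PCDHA and PCDHG protocadherins of chromosome 5 are among them, so its count and median hold repeats of the same signal. Copy number of the lines was not measured here.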
